A study of Homo sapiens with 2 samples.

Results

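MALAT1 (ENSG00000251562) and NEAT1 (ENSG00000245532) are the genes of 2 nuclear long non-coding RNAs (lncRNAs), among 33538 genes counted in both libraries. They were selected by name, on measured values of these same cells, namely their share of the UMIs of a cell and its relation to the mitochondrial share and to total UMIs. These values are therefore given as a description. HCT116, a human colon cancer cell line, was analyzed by single cell RNA sequencing after mock treatment or treatment with DAC (5-aza-2′-deoxycytidine), a nucleoside analog that depletes DNA methyltransferases and so removes DNA methylation. The dose of DAC was 0.5 µM, given on day 1 and again on day 3. DAC-free medium followed on day 5 and harvest on day 7, and mock-treated cells of the same line had no DAC. A UMI (unique molecular identifier) marks 1 captured RNA molecule, and molecules were captured by their runs of A. Since 1 library was made per condition, cells are not replicates, no test was possible, and differences between conditions cannot be told apart from differences between 2 libraries.

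MALAT1 RNA stays in the nucleus, where it gathers at nuclear speckles, the stores of splicing factors. NEAT1 RNA builds paraspeckles, nuclear bodies held together by its long form and by proteins such as SFPQ and NONO. The 3′ ends of MALAT1 and of the long form of NEAT1 are not made by polyadenylation: RNase P cuts the RNA in front of a tRNA-like small RNA, and U-rich stretches fold with an A-rich tract into a triple helix that protects the new end. The short form of NEAT1 ends earlier, at an ordinary polyadenylation site.

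On hg38 (GENCODE release 44), NEAT1 lies at chr11:65422774-65445540 and MALAT1 at chr11:65497640-65508073, both on the plus strand, with 52099 bases between them. The annotation holds 66 transcripts of MALAT1 and 9 of NEAT1. The sequences of the transcript ends are shown, since the library kit captures RNA by runs of A. Capitals mark the tRNA-like small RNA in the first and second sequences and the polyadenylation signal AATAAA in the third. They lie at chr11:65506007-65506173, chr11:65445431-65445598, and chr11:65426444-65426523, respectively, all on the plus strand.
MALAT1 3′ end: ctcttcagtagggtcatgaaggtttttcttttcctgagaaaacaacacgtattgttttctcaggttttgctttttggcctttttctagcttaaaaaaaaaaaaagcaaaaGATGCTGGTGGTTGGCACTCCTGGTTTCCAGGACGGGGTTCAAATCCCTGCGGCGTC
NEAT1 long form 3′ end: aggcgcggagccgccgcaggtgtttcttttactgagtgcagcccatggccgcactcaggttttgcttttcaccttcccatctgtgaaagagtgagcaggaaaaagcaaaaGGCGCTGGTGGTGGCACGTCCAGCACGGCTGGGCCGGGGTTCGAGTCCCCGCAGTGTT
NEAT1 short form end: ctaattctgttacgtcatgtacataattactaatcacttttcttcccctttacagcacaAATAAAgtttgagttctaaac

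The small RNAs had 57 bases in MALAT1 and 58 in NEAT1, and were identical in 41 of 61 alignment columns (67.2%). MALAT1 held 1 run of 10 A or more on its own strand, a run of 13 A that ends 6 bases before the small RNA. NEAT1 held 5 such runs, all downstream of the end of the short form. On the plus strand of chromosome 11, 21334 runs of this kind were found in 134533742 bases, and 2.52% of 167-base windows held one. AATAAA was in 7.22% of its 80-base windows on the plus strand, so its presence near the end of the short form is a description of the letters. Where along the genes the UMIs came from was not analysed here, and the forms of NEAT1 were counted together.

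The tables held 1783 mock-treated cells with 49911689 UMIs and 1751 DAC-treated cells with 59046165 UMIs, with a median of 27899 and 35340 UMIs per cell, respectively. The share of UMIs from the 13 mitochondrially encoded genes (mitochondrial share) had a median of 17.9% in mock-treated and 18.3% in DAC-treated cells. Of the epithelial markers, 8 of 9 were detected in mock-treated and 9 of 9 in DAC-treated cells, at 5030 and 7994 CPM (counts per 1000000 UMIs of the library) in sum. CEACAM6 had 0 and 5 UMIs. Blood cell markers summed to 6.81 and 13.2 CPM, and fibroblast and endothelial markers to 10.9 and 21.5 CPM. The libraries shared 12 barcodes.

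After DAC treatment the level of MALAT1 was lower, whereas NEAT1 summed over cells was nearly level. MALAT1 had 1451731 UMIs in mock-treated cells, or 2.91% of all UMIs, and was the gene with the 4th most UMIs. In DAC-treated cells it had 830196 UMIs, or 1.41% of all UMIs, and was at rank 9. The level of MALAT1 was thus 29086 CPM in mock-treated and 14060 CPM in DAC-treated cells, a 2.07-fold lower level (2.06 to 2.07) and a log2 ratio of -1.05. Intervals here and below are at the 95% level and do not cover the difference between libraries. Those of levels and ratios cover counting error only. NEAT1 had 35721 UMIs (715.7 CPM) in mock-treated and 41144 UMIs (696.8 CPM) in DAC-treated cells. Its ratio of DAC-treated to mock-treated cells was 0.974 (0.960 to 0.988), a log2 ratio of -0.04.

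A 2-fold difference in CPM was passed by MALAT1, and not by NEAT1. MALAT1 was close to this limit, and its log2 ratio was short of it with the mean of the share per cell (-0.91), after thinning to 1007 UMIs (-0.81), and without the 5% of cells with the most UMIs (-0.99995). Of the 12825 genes that reached 100 UMIs in at least 1 library, 23.0% passed it in either direction, 16.4% being higher and 6.58% lower in DAC-treated cells. Of 6447 genes with 1000 UMIs or more, 294 (4.56%) had a lower ratio than MALAT1, and 1991 (30.9%) had a lower ratio than NEAT1. The median log2 ratio of the 12825 genes was 0.25. Scaling by the median of ratios moved every log2 ratio by -0.18, so that MALAT1 was at -1.23 and NEAT1 at -0.22. A direction for NEAT1 was not fixed by these data, because its log2 ratio became 0.0043 with non-mitochondrial UMIs as the denominator and 0.10 after thinning every cell to 1007 UMIs.

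Cell by cell, the MALAT1 share was lower in DAC-treated cells, and wider relative to its level. In mock-treated cells, the MALAT1 share ranged from 0% to 54.2% of the UMIs of a cell, with a median of 2.73% and quartiles of 1.83% and 3.76%. In DAC-treated cells, it ranged from 0% to 41.2%, with a median of 1.08% and quartiles of 0.472% and 1.98%. The upper quartile of DAC-treated cells thus lay near the lower quartile of mock-treated cells. The median of mock-treated cells was above 1486 of the 1751 DAC-treated cells (84.9%), and their 10th percentile was above 933 (53.3%). The ends of the distributions overlapped, since the 99th percentile was 18.0% in mock-treated and 18.3% in DAC-treated cells. In percentage points the quartiles lay closer together in DAC-treated cells, but the 90th percentile was 5.42 times the 10th in mock-treated and 29.1 times in DAC-treated cells.

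NEAT1 was near 0 in more DAC-treated cells, while its 90th percentile was higher. In mock-treated cells, the NEAT1 share had a median of 0.0522%, quartiles of 0.0263% and 0.0979%, and a maximum of 3.28%. In DAC-treated cells, the median was 0.0303%, the quartiles were 0.0056% and 0.0884%, and the maximum was 2.50%. The 90th percentile, in contrast, was 0.165% in mock-treated and 0.196% in DAC-treated cells. The mock-treated median was above 1111 DAC-treated cells (63.5%), and the mock-treated 90th percentile was below 223 (12.7%). The median and the sum over cells therefore differed for NEAT1: the medians had a log2 ratio of -0.79 and the sums of -0.04. The 10% of cells with the most NEAT1 UMIs held 38.4% of them in mock-treated and 48.8% in DAC-treated cells. For MALAT1, the same value was 26.8% and 30.9%.

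**Figure D1:**
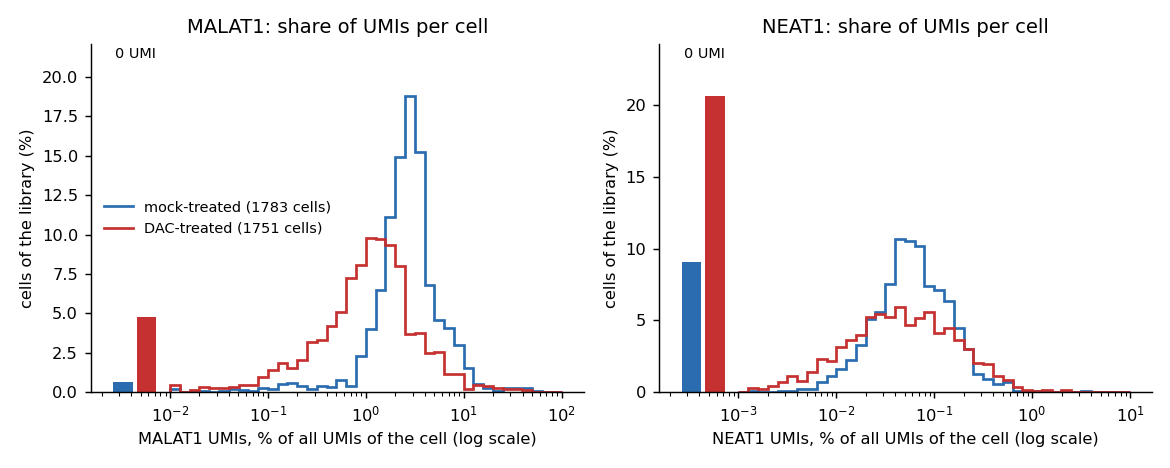
Share of MALAT1 (left) and NEAT1 (right) among all UMIs of a cell, on a log scale, in 1783 mock-treated and 1751 DAC-treated cells; lines give the percent of cells of the library per bin and bars the percent of cells with 0 UMI, with the few values under the scale put in the lowest bin. MALAT1 peaks at a lower share in DAC-treated cells, with medians of 2.73% and 1.08%, and 0 UMI of NEAT1 was counted in 9.03% of mock-treated and 20.6% of DAC-treated cells.

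Part of this spread came with shallow or highly mitochondrial cells, so the cells with 10000 UMIs or more and at most 50% mitochondrial share were also taken alone, and are called filtered cells (1298 mock-treated and 1120 DAC-treated). In filtered cells, the median MALAT1 share was 2.57% in mock-treated and 1.09% in DAC-treated cells, and the sums had a log2 ratio of -1.11. The mock-treated median was above 1036 of the filtered DAC-treated cells (92.5%), and the mock-treated 1st percentile was above 396 (35.4%). The 90th percentile of MALAT1 was 2.96 times the 10th in mock-treated and 6.94 times in DAC-treated cells. The median NEAT1 share was 0.0522% and 0.0340% in filtered cells, and the 90th percentile was 7.91 and 28.2 times the 10th, respectively. The wider spread relative to the level was thus also present among the filtered cells for both lncRNAs.

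The squared coefficient of variation beyond Poisson sampling, a measure of the spread between cells after counting noise is taken off, was 0.179 for MALAT1 in mock-treated and 0.450 in DAC-treated cells. For NEAT1, it was 0.844 and 1.42. For both genes the DAC-treated value was the higher one, and in filtered cells it was 0.160 and 0.400 for MALAT1 and 0.773 and 1.49 for NEAT1. These values weight deep cells most. When every cell was thinned to 1007 UMIs and so weighted equally, they were 1.23 and 3.03 for MALAT1 and 1.42 and 3.45 for NEAT1, again higher in DAC-treated cells.

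MALAT1 was counted in nearly every cell, and the cells without it were more frequent after DAC treatment. MALAT1 had 0 UMI in 12 mock-treated cells (0.673%, exact interval 0.348% to 1.17%) and in 84 DAC-treated cells (4.80%, 3.84% to 5.91%). These intervals treat the cells of 1 library as separate draws, so they do not measure a difference between conditions. If every cell of the library had the same share, 0.035 such cells would be counted in DAC-treated cells. NEAT1 had 0 UMI in 161 mock-treated (9.03%) and 361 DAC-treated cells (20.6%), where an even share would give 106 and 171 cells. Among filtered cells, MALAT1 was counted in all of them, and NEAT1 had 0 UMI in 4 mock-treated (0.308%) and 39 DAC-treated cells (3.48%). Thinned to 1007 UMIs, with 138 and 214 shallower cells dropped, MALAT1 had 0 UMI in 1.03% and 5.40% of cells, and NEAT1 in 53.6% and 60.8%. At this depth the median MALAT1 count was 27 and 12 UMIs, and the mean NEAT1 count was 0.796 and 0.852 UMI, so a NEAT1 count of 0 at this depth does not mark a cell without NEAT1. Both libraries were of 1 cell line, so the UMIs that free RNA adds could not be measured in cells that lack these genes.

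Cells at the low end of the MALAT1 share were of different kinds in the 2 libraries. A share under 0.1% was found in 29 mock-treated cells (1.63%), which had a median mitochondrial share of 81.2% and a median of 3138 UMIs. It was found in 149 DAC-treated cells (8.51%), which had a median mitochondrial share of 9.84% and a median of 1735 UMIs. Of these DAC-treated cells, 75 had a mitochondrial share under 10%, and 49 had one over 50%. At the high end, a MALAT1 share over 10% was found in 58 mock-treated cells (3.25%), of which 19 had a mitochondrial share under 10% and 30 had one over 50%. It was found in 33 DAC-treated cells (1.88%), of which 27 had a mitochondrial share under 10% and 2 had one over 50%. In MALAT1-rich cells, 16 cytosolic housekeeping mRNAs, of which RPS2 and EEF1A1 had the most UMIs, made up less of the non-mitochondrial UMIs. Over all mock-treated cells, RPS2 and EEF1A1 had 10730 and 9473 of the 48506 CPM of these mRNAs. Over all DAC-treated cells, they had 6357 and 3384 of 34066 CPM. The median share of the 16 mRNAs was 1.31% in MALAT1-rich against 6.005% in the other mock-treated cells, and 1.33% against 4.24% in DAC-treated cells. Whether loss of cytosolic RNA had a part in these shares was not tested. The limits of 0.1% and 10% were set after the values were seen.

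The MALAT1 share did not rise or fall steadily with the mitochondrial share, and was highest in cells with 50 to 80% mitochondrial UMIs. In 1106 mock-treated and 724 DAC-treated cells with 10 to 20% mitochondrial UMIs, its median was 2.61% and 1.07%. In 271 mock-treated and 293 DAC-treated cells with 50 to 80%, its median was 6.35% and 2.02%. In cells with 80% or more, 40 mock-treated and 26 DAC-treated, its median was 0.140% and 0.069%. As a share of non-mitochondrial UMIs, which takes the mitochondrial UMIs out of the denominator, the peak was steeper, with medians of 3.12% and 1.27% at 10 to 20% and of 21.4% and 6.66% at 50 to 80%. The housekeeping mRNAs went the other way, from 6.12% and 4.65% of non-mitochondrial UMIs at 10 to 20% to 1.77% and 1.89% at 50 to 80%.

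**Figure D2:**
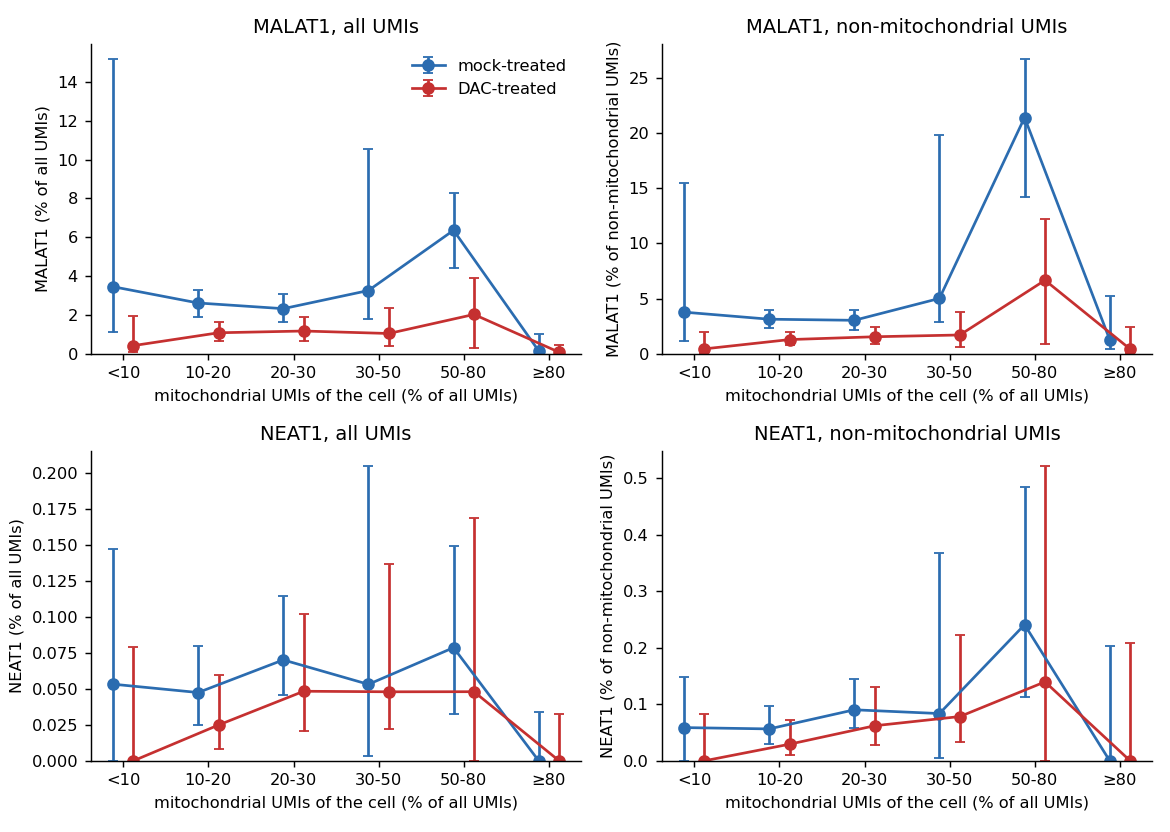
Median share of MALAT1 (top) and NEAT1 (bottom) per cell as a percent of all UMIs (left) and of non-mitochondrial UMIs (right), by the mitochondrial share of the cell; points are medians and bars run from the lower to the upper quartile of the cells. MALAT1 peaks at 50 to 80% mitochondrial UMIs, at 21.4% of non-mitochondrial UMIs in mock-treated and 6.66% in DAC-treated cells.

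Cells with 50 to 80% mitochondrial UMIs had different mixes of MALAT1 shares in the 2 libraries. MALAT1 exceeded 10% of non-mitochondrial UMIs in 218 of 271 mock-treated cells (80.4%) and in 102 of 293 DAC-treated cells (34.8%). It was under 1% in 16 of the mock-treated (5.90%) and 79 of the DAC-treated cells (27.0%). Shallow cells had less MALAT1: among cells with 50% or more mitochondrial UMIs, those with 10000 UMIs or more had a median MALAT1 share of all UMIs of 6.52% in 90 mock-treated and 3.14% in 173 DAC-treated cells. Those with 2000 to 10000 UMIs had a median of 6.35% in 175 mock-treated and 1.39% in 76 DAC-treated cells. Those with fewer than 2000 UMIs had a median of 0.315% in 46 mock-treated and 0.128% in 70 DAC-treated cells.

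**Figure D3:**
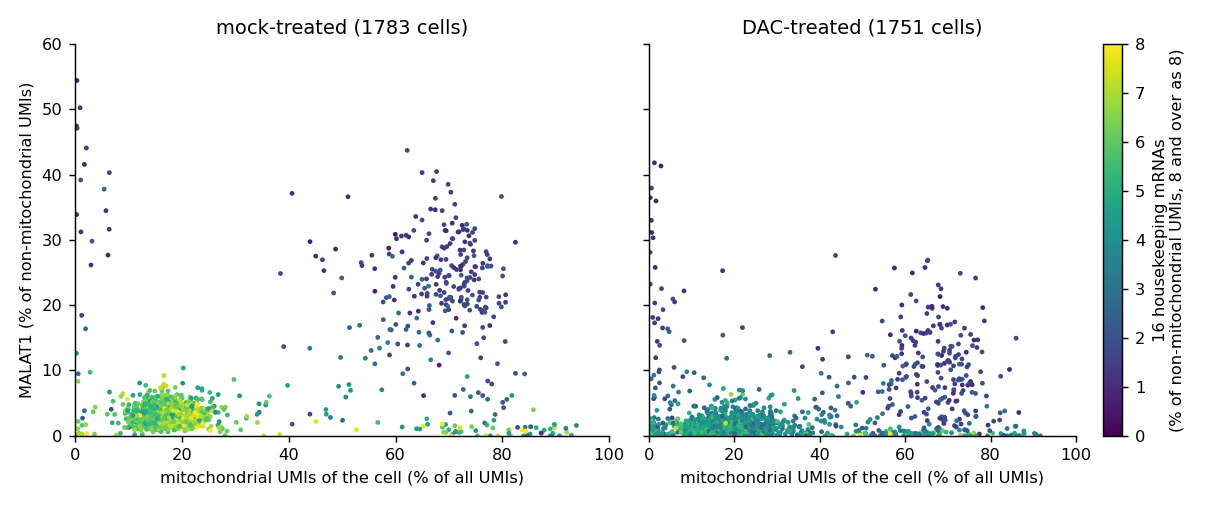
MALAT1 as a percent of non-mitochondrial UMIs against the mitochondrial share of the cell, 1 point per cell, colored by the share of the 16 housekeeping mRNAs among non-mitochondrial UMIs. Cells with over 10% MALAT1 are mostly dark, that is, low in housekeeping mRNAs, and among cells with 50 to 80% mitochondrial UMIs they made up 80.4% of mock-treated and 34.8% of DAC-treated cells.

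Cells with a low mitochondrial share were also a mixed class. A mitochondrial share under 10% was found in 70 mock-treated and 252 DAC-treated cells. Of the mock-treated cells, 5 had a MALAT1 share under 0.1%, 12 had 0.1 to 1%, 34 had 1 to 10%, and 19 had over 10%. Of the DAC-treated cells, 75, 77, 73, and 27 were in the same ranges. The lowest range was thus the largest or nearly so in DAC-treated cells and the smallest in mock-treated cells. In the highest range, the median NEAT1 share was 0.176% in mock-treated and 0.372% in DAC-treated cells, against 0.0570% and 0.0432% in cells with 1 to 10% of MALAT1.

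Within each of the 6 ranges of mitochondrial share, MALAT1 summed over cells was lower in DAC-treated cells. Its ratio of DAC-treated to mock-treated cells was 0.420 under 10%, 0.456 at 10 to 20%, 0.508 at 20 to 30%, 0.298 at 30 to 50%, 0.451 at 50 to 80%, and 0.417 at 80% or more. With the 2 libraries given the same mix of mitochondrial shares, the log2 ratio was -1.16. NEAT1 summed over cells was below its mock-treated level up to 50% mitochondrial share, with ratios of 0.656 to 0.865, and above it in the other ranges. The ratio of NEAT1 was 1.24 (1.19 to 1.29) at 50 to 80% and 1.78 (1.39 to 2.30) at 80% or more. The median cell did not follow these sums: at 50 to 80% the median NEAT1 share was 0.0787% in mock-treated and 0.0480% in DAC-treated cells, with 37 and 86 cells at 0 UMI, and at 80% or more both medians were 0%.

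By total UMIs of the cell, MALAT1 as a share of all UMIs was again lower in DAC-treated cells in all 6 ranges. Its ratio of sums was 0.318 under 2000 UMIs, 0.704 at 2000 to 10000, 0.654 at 10000 to 20000, 0.626 at 20000 to 40000, 0.460 at 40000 to 60000, and 0.391 at 60000 or more. The median MALAT1 share was highest at 2000 to 10000 UMIs in mock-treated cells (5.89%, 223 cells) and at 10000 to 20000 UMIs in DAC-treated cells (2.49%, 158 cells). As a share of non-mitochondrial UMIs, the median turned at 10000 to 20000 UMIs, to 5.75% in mock-treated and 7.69% in DAC-treated cells, whose median mitochondrial shares were 26.0% and 60.9%. At 60000 UMIs or more, the share of all UMIs was 2.84% in 104 mock-treated and 1.10% in 269 DAC-treated cells. NEAT1 had ratios of 0.650, 1.13, 1.30, 1.02, 1.06, and 0.879 over the same ranges, which lay on both sides of 1.

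**Figure D4:**
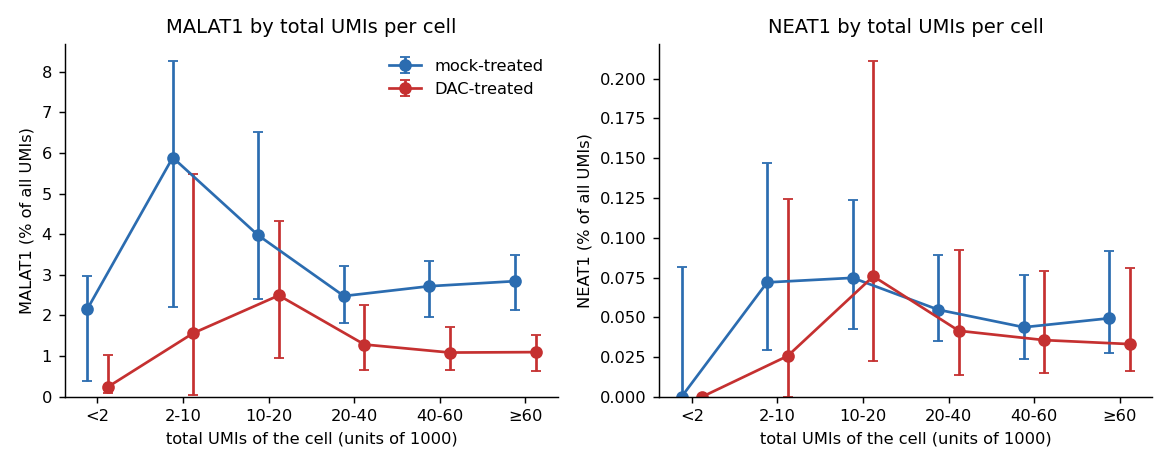
Median share of MALAT1 (left) and NEAT1 (right) among all UMIs of a cell, by the total UMIs of the cell in units of 1000; points are medians and bars run from the lower to the upper quartile of the cells. As a share of all UMIs, the MALAT1 median is lower in DAC-treated cells in every range (as a share of non-mitochondrial UMIs it is higher at 10000 to 20000), from 2.15% against 0.240% under 2000 UMIs to 2.84% against 1.10% at 60000 or more, while the quartile ranges of NEAT1 overlap in every range.

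Rank correlations over cells are given as a description of each library, whose cells share library, depth, and denominator. Over all cells, the MALAT1 share had a Spearman coefficient with the mitochondrial share of 0.110 in 1783 mock-treated and 0.144 in 1751 DAC-treated cells. In filtered cells, it was -0.113 and 0.047. With non-mitochondrial UMIs as the denominator, it was 0.240 and 0.297 over all cells, and -0.014 and 0.148 in filtered cells, so the relation depended on the denominator and on the cells taken. The NEAT1 share had a coefficient with the mitochondrial share of 0.183 and 0.236 over all cells, and of 0.291 and 0.269 in filtered cells, but of 0.096 and 0.139 after thinning to 1007 UMIs. With total UMIs, the coefficient was -0.086 and 0.095 for MALAT1 and 0.014 and 0.276 for NEAT1 over all cells. In filtered cells, it was 0.072 and -0.043 for MALAT1 and -0.142 and 0.036 for NEAT1, so none of these relations to depth kept both its size and its sign.

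MALAT1 and NEAT1 shares went together across cells in both libraries. The Spearman coefficient between them was 0.441 in mock-treated and 0.581 in DAC-treated cells, and 0.343 and 0.382 in filtered cells. After thinning to 1007 UMIs, it was 0.247 and 0.374. Both lncRNAs were counted in 1622 mock-treated and 1388 DAC-treated cells, and neither in 12 and 82. MALAT1 alone was counted in 149 mock-treated and 279 DAC-treated cells, and NEAT1 alone in 0 and 2. For each 100 MALAT1 UMIs, 2.46 NEAT1 UMIs were counted in mock-treated and 4.96 in DAC-treated cells. This ratio of UMI counts is not a ratio of molecules, since the transcripts differ in length and in their runs of A. Among cells with 100 MALAT1 UMIs or more, 1578 mock-treated and 1315 DAC-treated, the median was 2.02 and 3.27 NEAT1 UMIs per 100 MALAT1 UMIs, and the 90th percentile was 5.26 and 12.96.

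NEAT1 ranked 2nd among the genes whose share per cell was most like that of MALAT1. Over filtered cells, 3933 genes that averaged at least 1 UMI per cell in each library were ranked by the smaller of the 2 Spearman coefficients with the share of each lncRNA. For the least like genes, the ranking was by the lowest value of the larger coefficient. The gene most like MALAT1 was GOLGB1, which encodes the Golgi protein giantin, with coefficients of 0.363 in mock-treated and 0.403 in DAC-treated cells. It was followed by NEAT1, DST, GOLGA4, AHNAK2, TAF15, AKAP12, NORAD, APP, and NRDC. DST and AHNAK2 encode very large proteins, and NORAD is another lncRNA. The least like were RANBP1, OAZ1, EIF5A, C1QBP, and RAN, with coefficients of -0.216 to -0.292.

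For NEAT1, MALAT1 came first, followed by AHNAK2 with coefficients of 0.390 and 0.306. Next were MT-ND5, PNRC1, MT-CO1, PSAP, MXD4, MT-CO2, MT-ND4, and S100A6. MT-ND5, MT-ND4, MT-CO1, and MT-CO2 encode subunits of the mitochondrial respiratory chain. The least like were TUBA1B, an alpha-tubulin gene, with coefficients of -0.434 and -0.408, then SRSF7, CDC20, SRSF3, and HMGB1. SRSF3 and SRSF7 encode splicing factors, and CDC20 encodes an activator of the anaphase-promoting complex.

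NEAT1 was lowest in the cells with the highest share of mitosis genes. Filtered cells of each library were put into 3 groups of equal size by their share of 14 G2/M genes, a list added after values were seen. From the lowest to the highest group, the level of NEAT1 was 821, 844, and 434 CPM in mock-treated cells. In DAC-treated cells, it was 994, 502, and 388 CPM. MALAT1 moved less, at 28728, 28012, and 24720 CPM in mock-treated cells and 15037, 10485, and 12108 CPM in DAC-treated cells. The G2/M genes were at 1119 CPM in mock-treated and 2316 CPM in DAC-treated cells in sum, so the groups did not hold the same shares of these genes in the 2 libraries. The median mitochondrial share of the lowest and the highest group was 18.2% and 15.4% in mock-treated cells and 21.9% and 15.7% in DAC-treated cells. Along the groups, the median of total UMIs was 31141, 30269, and 40179 in mock-treated and 44488, 47580, and 48823 in DAC-treated cells. The part of either in the NEAT1 levels was not tested.

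NEAT1 was highest in the cells with the highest share of p53 targets, a list of 20 genes that are activated by the tumor suppressor p53. The list summed to 2933 CPM in mock-treated and 1384 CPM in DAC-treated cells, of which SAT1 had 1474 and 189 CPM and GDF15 had 753 and 258 CPM, so these genes set most of the mock-treated groups. Along the 3 groups, the level of NEAT1 was 479, 660, and 910 CPM in mock-treated cells and 412, 619, and 839 CPM in DAC-treated cells. The level of MALAT1 was 25269, 27119, and 28570 CPM in mock-treated cells and 10490, 12182, and 14990 CPM in DAC-treated cells. Without SAT1 and GDF15, which was tried after the values were seen, NEAT1 was at 533, 556, and 927 CPM in mock-treated cells and at 402, 620, and 834 CPM in DAC-treated cells. By the whole list, both lncRNAs were thus higher from each group to the next in both libraries, NEAT1 by more relative to its level. Without SAT1 and GDF15, MALAT1 was at 25633, 26393, and 28671 CPM in mock-treated and 10859, 12564, and 14049 CPM in DAC-treated cells. The first mock-treated step of NEAT1 was then small, with overlapping intervals of 521 to 545 and 544 to 567 CPM. Along the groups by the whole list, the median mitochondrial share went from 16.1% to 18.4% in mock-treated and from 16.1% to 20.2% in DAC-treated cells. Without SAT1 and GDF15, it was 17.4%, 16.9%, and 16.99% in mock-treated and 16.3%, 18.3%, and 19.6% in DAC-treated cells, and its part in the NEAT1 levels was not tested. Cells were also grouped by the genes that no mock-treated cell held at more than 2 UMIs. The set held some genes that were higher in DAC-treated cells, and left out those that passed this limit in any mock-treated cell. Along groups by the share of this set, NEAT1 was at 454, 599, and 803 CPM in DAC-treated cells. It was at 492, 680, and 919 CPM in mock-treated cells, where the genes of this set are held at 2 UMIs or fewer by their definition. From the lowest to the highest group, the median mitochondrial share was 16.6%, 17.0%, and 18.1% in mock-treated and 16.6%, 17.97%, and 19.6% in DAC-treated cells. The median of total UMIs was 36667, 33606, and 28480 in mock-treated and 46845, 47655, and 46531 in DAC-treated cells. The part of either in the NEAT1 levels was not tested.

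**Figure D5:**
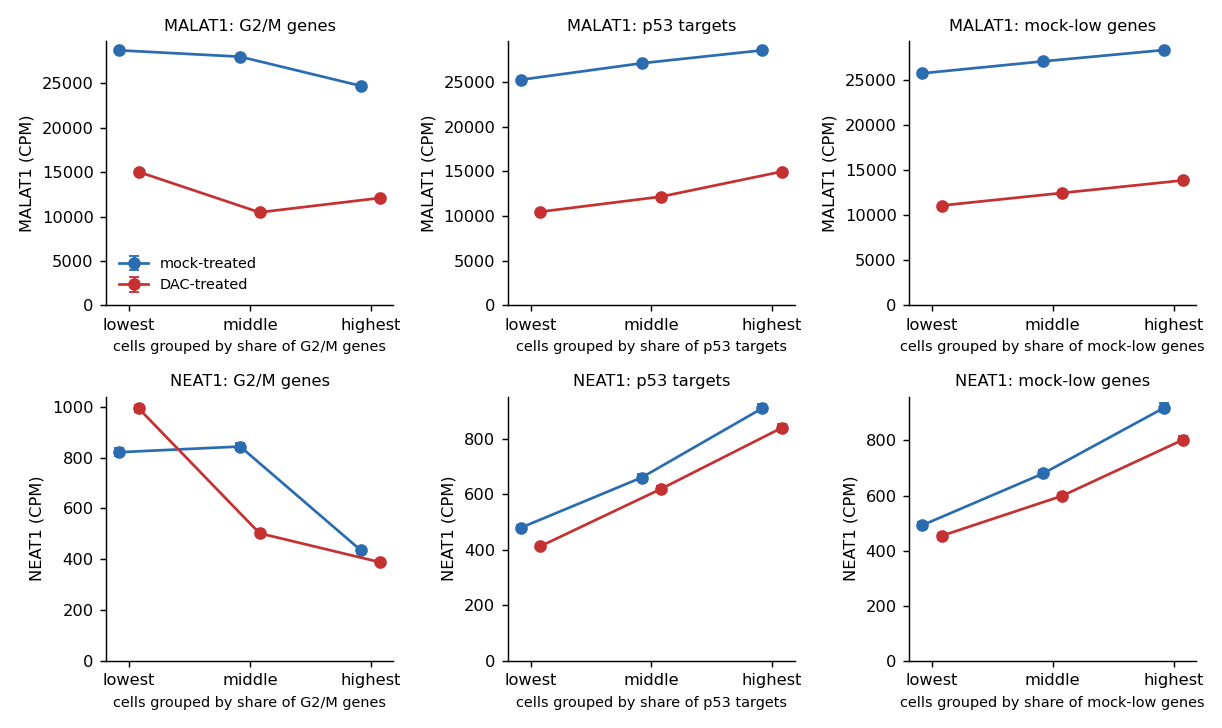
Level of MALAT1 (top) and NEAT1 (bottom) in CPM, in filtered cells of each library put into 3 groups of equal size by the share of G2/M genes (left), p53 targets (middle), or mock-low genes, which no mock-treated cell held at more than 2 UMIs (right); points are sums over cells and bars, mostly smaller than the points, are 95% intervals for counting error. NEAT1 runs from 412 to 839 CPM along the p53 groups of DAC-treated cells, and from 994 to 388 CPM along their G2/M groups.

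Genes of proteins that work with these lncRNAs are given beside all genes, of which 16.4% were higher by 2-fold, 6.58% were lower by 2-fold, and 63.9% were higher by any amount (53.8% with median-of-ratios scaling). Of 25 paraspeckle protein genes with 100 UMIs or more, 0 were higher and 1 was lower by 2-fold, with a median log2 ratio of 0.30 against 0.25 over all genes. CIRBP, a cold-inducible RNA-binding protein, was the lower one (221 and 97.2 CPM, log2 ratio of -1.19). The core paraspeckle proteins SFPQ, NONO, and PSPC1 had log2 ratios of 0.54, 0.04, and 0.28, and HNRNPM had the highest among genes with 3000 UMIs or more, 0.98. Of the 25 genes, 20 were higher in DAC-treated cells, and 15 with median-of-ratios scaling. Of 24 nuclear speckle protein genes, 1 was higher and 0 were lower by 2-fold, with a median of 0.27. The higher one was ALYREF, an mRNA export adaptor (1.41), and PNISR was at -0.33. Of the 24 genes, 16 were higher in DAC-treated cells, and 14 with median-of-ratios scaling.

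Genes that process or modify these RNAs stand beside the same shares of all genes, namely 16.4% higher and 6.58% lower by 2-fold and 63.9% higher by any amount (53.8% with median-of-ratios scaling). Of the genes of processing, 11 of 12 were higher by any amount, and 10 with median-of-ratios scaling, and of those of modification, 10 of 11 and 8. Of 12 genes of 3′-end processing, which encode RNase P subunits, the nuclease ELAC2, and METTL16, a protein that binds the MALAT1 triple helix, 4 were higher and 0 were lower by 2-fold. Their median log2 ratio was 0.78, with POP5 at 1.17, RPP30 at 0.73, and METTL16 at 0.56. Of 11 genes of m6A methylation, its erasers, and nuclear readers, none passed 2-fold, and the median was 0.41. HNRNPC, whose protein binds m6A-modified MALAT1, was at -0.16, and the demethylase gene ALKBH5 was at 0.88.

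Listed neighbours of MALAT1 and NEAT1 on 11q13 were mostly above their mock-treated level, as were 63.9% of all genes. Of 16 neighbouring genes with 100 UMIs or more, 4 were higher and 0 were lower by 2-fold, against 16.4% and 6.58% of all genes. Their median log2 ratio was 0.53, and 15 were higher by any amount, or 12 with median-of-ratios scaling. FRMD8, which lies on the NEAT1 side, was at 4.99 CPM in mock-treated and 14.0 CPM in DAC-treated cells (log2 ratio of 1.49). SSSCA1 was at 1.18 and FAM89B at 0.09. The gene ENSG00000270117, which lies on the other strand within MALAT1, had 13 UMIs in mock-treated and 7 in DAC-treated cells, so few that reads placed on the wrong strand cannot be told apart from its own. TALAM1, the long antisense gene of MALAT1 in GENCODE, was not analysed here.

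Other lncRNAs did not move as 1 group, and the counts of this and the next lists stand beside 16.4% of all genes that were higher and 6.58% that were lower by 2-fold. Of 30 listed, 18 names were matched and 15 had 100 UMIs or more, of which 4 were higher and 3 were lower by 2-fold, with a median log2 ratio of -0.05. EPB41L4A-AS1 was at 137 CPM in mock-treated and 25.4 CPM in DAC-treated cells (-2.43). MEG3, an imprinted lncRNA, had 2 UMIs in mock-treated and 11356 UMIs in DAC-treated cells (log2 ratio of 12.23, 10.38 to 15.27). Of 20 p53 targets, 4 were higher and 4 were lower by 2-fold, with PHLDA3 at 1.72 and SAT1, a polyamine-degrading enzyme, at -2.96. The median of these 20 genes was 0.53. Of the 16 housekeeping mRNAs, 3 were higher and 2 were lower by 2-fold, with a median of 0.09, TUBB at 1.34, and EEF1A1 at -1.49. Of the 13 mitochondrially encoded genes, 2 were higher and 0 were lower by 2-fold, with a median of 0.64, MT-ND4L at 1.40, and MT-CO3 at -0.21.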

How the data were processed

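The 3′ single cell libraries of 1 mock-treated and 1 DAC-treated HCT116 culture were processed by the authors using Cell Ranger with hg38, and the deposited values are raw UMI counts, whole numbers for each gene in each cell. The annotation release, the strand setting of the counting, and any filter on cells are not given in the sources used here. All deposited cells were used, and doublets were not called. MALAT1, NEAT1, the genes of lists and markers, and the mitochondrially encoded genes were picked by gene name. Ensembl identifiers were the same in both libraries. The computations were run in Python 3.11.15 (pandas 2.3.3, scipy 1.17.1, numpy 2.4.6, and, for plots, matplotlib 3.10.9).

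UMIs were summed over cells and scaled to 1000000 UMIs (CPM). Ratios have exact conditional intervals and shares of cells Clopper-Pearson intervals, at the 95% level. No test was made. A simulation of 3000 genes with 200 changed recovered 200 of them within 0.25 on the log2 scale. Positions and sequences were read from hg38 and GENCODE release 44.

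Members, lists, and alternatives were chosen with earlier results of these data known. Within each list, the genes named are those with the highest and the lowest ratio among genes with 3000 UMIs or more (the G2/M and S-phase lists were only counted), together with SFPQ, NONO, PSPC1, METTL16, and FRMD8, and genes used as examples of what a list holds. For likeness, the 10 most and 5 least like genes are named. The result of 1 further gene under this rule is not reported here. G2/M and S-phase lists, the limits of extreme shares, and the 3 groups of cells were added after values were seen. Alternatives were other denominators, scalings, summaries over cells, cell filters, thinning to 1007 UMIs, and a common mix of mitochondrial shares.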

Additional observations from a re-analysis of the deposited data

How the results depend on the processing

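With 1 library per condition, no paired analysis was possible because no result comes from a test, and counting intervals do not cover the difference between libraries. The log2 ratio of MALAT1 (-1.05) stayed below 0 in 11 of 11 alternatives, but was short of a 2-fold difference in 3 of them: -1.01 with non-mitochondrial UMIs as the denominator, -1.23 with median-of-ratios scaling, -0.91 with the mean and -1.33 with the median share per cell, -1.08 without cells over 20% mitochondrial UMIs, -1.11 in filtered cells, -0.99995 without the 5% of cells with the most UMIs, -1.04 without shared barcodes, -0.81 thinned, -1.16 with the same mix of mitochondrial shares, and -1.05 without cells under 2000 UMIs, which was added after the data were seen. The log2 ratio of NEAT1 (-0.04) became 0.0043 with non-mitochondrial UMIs and 0.10 thinned, and was -0.22, -0.79, -0.26, -0.14, -0.013, and -0.10 for median-of-ratios scaling, the median share, the 20% limit, filtered cells, the 5% of cells, and the mix. Genes past 2-fold (2945) were 1086 with a minimum of 1000 UMIs and 9578 with no minimum. The Spearman coefficient changed sign for MALAT1 and mitochondrial share in mock-treated cells (-0.078 under the 20% limit, -0.11 filtered), for MALAT1 and total UMIs (mock-treated 0.047 under the 20% limit and 0.072 filtered; DAC-treated -0.043 filtered and -0.11 thinned), and for NEAT1 and total UMIs (mock-treated -0.10 with non-mitochondrial UMIs, -0.0047 under the 20% limit, -0.14 filtered, and -0.085 thinned; DAC-treated -0.061 thinned). The causes were not tested, apart from the cells that each alternative leaves out. Depth limits the share of NEAT1 per cell, at a median of 13 UMIs per mock-treated and 10 per DAC-treated cell.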

Other observations

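NEAT1 was also lowest in the cells with the highest share of S-phase genes, a list of 14 genes such as CLSPN and MCM7 that was added after values were seen. Along 3 groups of filtered cells from the lowest to the highest share, NEAT1 was at 791, 845, and 465 CPM in mock-treated cells and at 998, 468, and 383 CPM in DAC-treated cells. MALAT1 was at 28678, 27625, and 25179 CPM in mock-treated cells and at 14677, 11313, and 11470 CPM in DAC-treated cells. The lowest and the highest group had a median mitochondrial share of 17.7% and 15.9% in mock-treated and 22.3% and 15.6% in DAC-treated cells, and a median of 29313 and 40997 UMIs in mock-treated and 46848 and 43686 UMIs in DAC-treated cells. The part of these in the levels was not tested. By comparison with all genes, of which 16.4% were higher and 6.58% were lower by 2-fold, 10 of the 14 S-phase genes were higher by 2-fold in DAC-treated cells and 0 were lower, with a median log2 ratio of 1.08, and 8 of the 14 G2/M genes were higher and 0 were lower, with a median of 1.13.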
